A study of Mus musculus with 8 samples.

Results

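Bile acid synthesis, conjugation and hepatobiliary transport were followed through 32 genes, chosen by symbol from the 25690 genes of the deposited table. They cover the enzymes that turn cholesterol into bile acids, the enzymes that attach taurine or glycine, and the carriers that take bile acids into hepatocytes and export them to bile or back to blood. The study compared liver (hepatic tissue) RNA of 4 libraries labelled as hepatic FOXO1 knockout, numbered 3, 9, 10 and 11 in their titles, with 4 libraries labelled as wildtype control, numbered 1, 3, 10 and 12. The sources used here do not give age, sex, strain, feeding state or the means of the deletion. Whether each library stands for a mouse of its own is not in the labels, so the p-values rest on a spread between libraries that may be technical.

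Hepatocytes make bile acids from cholesterol by a classic route that opens with Cyp7a1 and an alternative route that opens with Cyp27a1 and runs through Cyp7b1. The side chain is shortened in peroxisomes, the acid is activated to a coenzyme A ester and joined to an amino acid, and the conjugate is pumped into the bile canaliculus. Bile acids that return from the intestine in portal blood are taken up again at the sinusoidal membrane, and they hold back their own synthesis through the nuclear receptor FXR (Nr1h4), its target SHP (Nr0b2) and the intestinal hormone Fgf15, which acts on hepatocytes through Fgfr4 and Klb. Foxo1 is a forkhead factor that drives genes of glucose production in fasting liver, and insulin, through AKT, moves it to the cytoplasm.

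The targeted gene was low in every knockout library. Foxo1 was at 0.224, 0.267, 0.375 and 0.212 FPKM in knockout 3, 9, 10 and 11, against 3.21, 3.01, 3.38 and 3.81 FPKM in wildtype 1, 3, 10 and 12. FPKM scales a gene's fragments to its transcript length and to the fragments mapped in the library, so levels of different genes can be compared. From the smallest steps in the values, library depth was estimated at 26.9 to 35.2 M fragments. Hepatocyte markers were abundant, their sum without Alb being 18688 to 25263 FPKM in knockout and 22391 to 23420 FPKM in wildtype libraries, and 0 of 7 tested were called. Alb itself was listed at 0 in knockout 10 and at 20877 FPKM or more elsewhere. Knockout 3 and 11 stood apart in acute phase genes, which the liver raises in inflammation: Saa1 was at 28413, 573, 266 and 33012 FPKM in knockout 3, 9, 10 and 11, and at 97.3, 98.9, 78.3 and 195 FPKM in wildtype 1, 3, 10 and 12. The summed level of the 16 acute phase genes was 13691 to 106931 FPKM in knockout and 12023 to 13505 FPKM in wildtype libraries, and 3 of them, among these Lrg1, were called higher. All knockout libraries, 9 and 10 included, lay above all wildtype libraries for 7 of the 16 and below for 0 (4.83% and 16.5% of all tested genes). Lrg1 was at 1171, 271, 261 and 872 FPKM in knockout 3, 9, 10 and 11, against 113, 107, 101 and 134 FPKM in wildtype 1, 3, 10 and 12. Among markers of other cells, the summed levels in knockout and wildtype libraries were 41.9 to 69.8 and 52.8 to 71.7 FPKM for Kupffer cells, 27.5 to 49.3 and 49.3 to 65.0 FPKM for endothelium, and 28.1 to 63.4 and 57.6 to 69.4 FPKM for stellate cells. They were 4.59 to 137 and 2.49 to 6.28 FPKM for lymphocytes and neutrophils, with 58.2 and 137 FPKM in knockout 3 and 11 and 4.59 and 7.77 FPKM in knockout 9 and 10. S100a8 (31.4 and 77.2 FPKM) and S100a9 (24.3 and 57.5 FPKM) gave most of the sum in knockout 3 and 11. Ptprc, a marker of all leukocytes, was at 0.458 to 0.774 FPKM in knockout and 0.511 to 0.686 FPKM in wildtype libraries. The sums in knockout and wildtype libraries were 32.6 to 44.1 and 26.5 to 35.6 FPKM for cholangiocytes, and 49.6 to 116 and 148 to 180 FPKM for intestine and pancreas. Of this last list Cdx2, Prss1 and Cpa1 were listed at 0 in all libraries, and Fabp2 and Cela1 gave nearly the whole sum; both were called lower, as was the endothelial Stab1, while 0 of the other tested markers of these cells were called. For comparison with these marker counts, 11.7% of all tested genes were called lower and 2.7% higher. The part that these cells and the acute phase had in the values below was not tested. In bulk RNA, fewer cells of a type and less RNA per cell cannot be told apart.

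Of the 32 genes, 7 fell in the knockout liver and 0 rose. The falls were in the exporters Abcb11 and Abcc3, the uptake carriers Slco1a4 and Slc10a1, the activating and conjugating enzymes Slc27a5 and Baat, and the reductase Akr1c6. They were called by limma on log2(FPKM + 1) at a Benjamini-Hochberg adjusted p under 0.05 over the 10250 genes that averaged 1 FPKM or more, a filter that 30 of the 32 passed. Of the 30, 23.3% were called lower and 0 higher, against 11.7% and 2.7% of all tested genes. Scaling moved these counts, from a fit with 1195 of all genes called lower and 277 higher. Median-ratio scaling called 5 of the 30 lower and 0 higher (720 and 485 of all genes), and removal of each library's trend along transcript length 4 lower and 2 higher, Slc51b and Cyp2c70 (585 and 516 of all genes). Quantile normalization called 3 lower, Abcb11, Abcc3 and Slco1a4, and 1 higher, Cyp2c70 (652 and 470 of all genes). A filter at a mean of 5 FPKM kept 26 of the 32 genes and 6003 of all genes. It called 8 of the 26 lower and 0 higher (1197 and 228 of all genes), so the share called lower among all genes depended on level. The median log2 change of the 30 was -0.26, and that of all tested genes -0.08, or -0.12 with the filter at 5 FPKM. For 8 of the 30, or 26.7%, every knockout library lay below every wildtype library, compared with 16.5% of all tested genes, and for 0 of the 30 it lay above, compared with 4.83%. By role, 1 of 8 tested genes of ring and side-chain synthesis, 2 of 7 of side-chain shortening and conjugation, 1 of 6 of canalicular export, 1 of 3 of basolateral export and 2 of 6 of uptake fell. Leaving out knockout 3 and 11 together left 4 of the 7 called, and leaving out wildtype 12 alone also left 4.

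**Figure D1:**
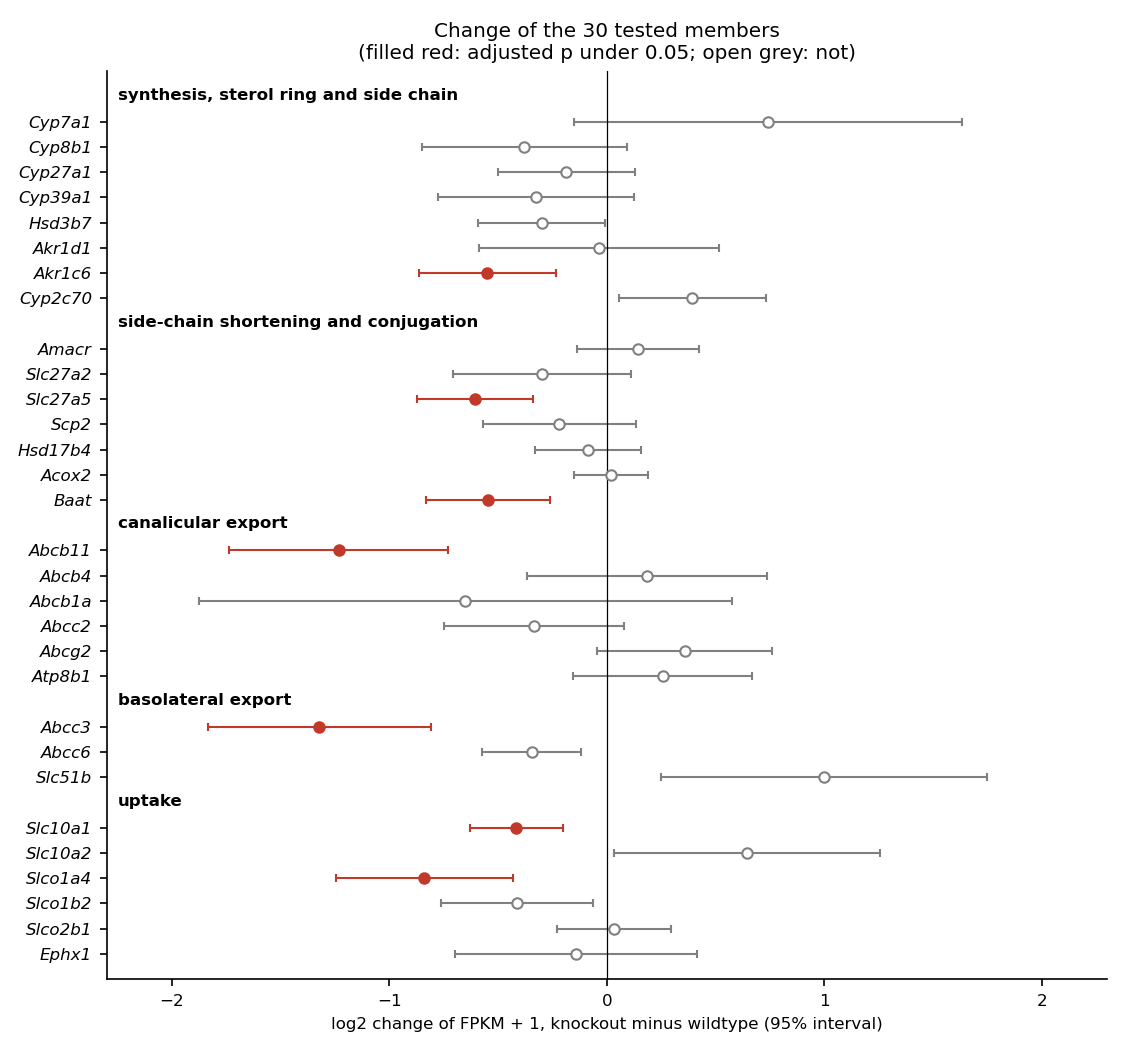
Change of the 30 tested genes by role, as the difference in log2(FPKM + 1), knockout minus wildtype, with limma's 95% interval. The 7 filled red points passed an adjusted p of 0.05 and all lie left of 0; Slc51b and Cyp7a1 lie farthest to the right, with wide intervals.

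Levels in these livers spanned several orders of magnitude. Scp2 was the highest member, with a mean of 1644 FPKM over the 8 libraries, followed by Akr1c6 at 1158, Slc27a2 at 504 and Cyp2c70 at 443 FPKM. The uptake carriers Slco1b2 and Slc10a1 averaged 339 and 324 FPKM, well above the exporters Abcb11 at 105, Abcc2 at 39.4 and Abcc3 at 15.1 FPKM. At the low end, Atp8b1 averaged 2.80, Slc51b 2.36 and Abcb1a 1.47 FPKM. Abcc4, an exporter of the sinusoidal membrane, was at 0.0547 to 0.0917 FPKM in knockout and 0.0522 to 0.103 FPKM in wildtype libraries and was not tested. Slc51a was listed at 0 in all 8 libraries. Its exons overlap Pcyt1a on the opposite strand, and the sources used here do not say whether strand was used in counting.

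Cyp7a1 encodes cholesterol hydroxylase, the rate-limiting enzyme of the classic route (chromosome 4, 6265612 to 6275633, mm10, minus strand). It was at 82.3, 32.1, 19.2 and 69.0 FPKM in knockout 3, 9, 10 and 11, against 20.8, 23.9, 31.8 and 27.1 FPKM in wildtype 1, 3, 10 and 12. Knockout 3 and 11, the libraries with high Saa1, were the high ones, while knockout 9 lay just above and knockout 10 just below the wildtype range. Cyp7a1 did not pass, with a log2 change of 0.74 (SE 0.40, 95% interval -0.15 to 1.64, limma adjusted p = 0.247). Without knockout 10 it did (1.12, limma adjusted p = 0.0397), and without knockout 3 and 11 the difference was -0.04 (limma adjusted p = 0.932).

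The other hydroxylases of the ring and side chain did not pass. Cyp8b1, the sterol hydroxylase that directs the pathway to cholic acid, was at 105, 84.5, 92.2 and 143 FPKM in knockout 3, 9, 10 and 11, against 149.7, 117, 104 and 186 FPKM in wildtype 1, 3, 10 and 12. The groups overlapped, with a log2 change of -0.38 (95% interval -0.85 to 0.09, limma adjusted p = 0.261). Cyp27a1, the mitochondrial side-chain hydroxylase, was at 165, 154, 144 and 219 FPKM in the knockout libraries and at 196, 167, 193 and 214 FPKM in the wildtype libraries. Its log2 change was -0.19 (95% interval -0.50 to 0.13, limma adjusted p = 0.413), and 0.05 with quantile normalization. Cyp39a1, an oxysterol hydroxylase, averaged 3.21 ± 0.736 FPKM in knockout and 4.35 ± 1.39 FPKM in wildtype liver (SD, n = 4 each; limma adjusted p = 0.315).

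Cyp2c70, the mouse enzyme that forms muricholic acids, was at 458, 519, 554 and 471 FPKM in knockout 3, 9, 10 and 11, against 285, 459, 379.8 and 419 FPKM in wildtype 1, 3, 10 and 12. Knockout 9, 10 and 11 lay above the wildtype range and knockout 3 lay just below wildtype 3. The log2 change of 0.39 (95% interval 0.06 to 0.73) missed the threshold (limma adjusted p = 0.113). It passed with quantile normalization (0.70, limma adjusted p = 0.0271) and with each library's trend along transcript length removed (0.55, limma adjusted p = 0.0420). Cyp2c genes are similar in sequence and can share reads.

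Promoters of these genes, from RefSeq on GRCm38.p6 (mm10), cover 250 bases before and 50 after each start, and 23 of the 32 genes had an entry, with 30 promoters in all. Abcc3, Slc27a5 and Baat, all called lower, and Cyp7a1 were among the genes without an entry and were not searched. Letters of known binding motifs were searched on both strands: GTAAACA for FoxO, CAAGGTCA for Nr5a2, CAAAGTCCA for Hnf4a, the inverted repeat of AGGTCA with 1 free base between for FXR, and the nuclear receptor half-site AGGTCA alone, which lies within the Nr5a2 and FXR motifs. The Hnf4a letters were found in 2 of the 30 promoters, those of Cyp8b1 and Cyp2c70, and in 0.475% of 32817 mouse promoters of this length. The half-site was in 12 of the 30 and in 16.3% of all, the FoxO letters in 1 (Abcb1a) and in 3.65%, and the Nr5a2 letters in 1 (Abcg2) and in 1.56%. That Abcb1a promoter, chr5:8566841-8567140, lies far upstream of the gene as annotated here, which starts at 8660077 on the plus strand. The FXR letters were in 0 of the 30 and in 0.00914% of all. A match is a description of the letters and not a binding site. The promoters of Cyp8b1 (chr9:121916256-121916555, minus strand) and Cyp2c70 (chr19:40187237-40187536, minus strand) are shown 5′ to 3′ because they hold the Hnf4a match; capitals mark the matches, which in Cyp2c70 include the half-site.
Cyp8b1: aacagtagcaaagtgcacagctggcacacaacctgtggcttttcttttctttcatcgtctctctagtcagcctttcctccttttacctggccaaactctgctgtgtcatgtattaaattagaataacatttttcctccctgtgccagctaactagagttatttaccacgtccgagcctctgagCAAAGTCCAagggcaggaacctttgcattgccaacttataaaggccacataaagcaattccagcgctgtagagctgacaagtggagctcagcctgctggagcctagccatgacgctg
Cyp2c70: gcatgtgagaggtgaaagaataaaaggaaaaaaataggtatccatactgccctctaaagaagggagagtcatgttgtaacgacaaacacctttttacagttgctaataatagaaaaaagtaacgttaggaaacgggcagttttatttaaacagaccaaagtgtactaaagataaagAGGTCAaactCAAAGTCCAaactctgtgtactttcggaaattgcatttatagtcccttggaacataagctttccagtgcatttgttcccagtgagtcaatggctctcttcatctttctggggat

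Of the enzymes that finish the steroid ring, Akr1c6 fell. It encodes an aldo-keto reductase (chromosome 13, 4434306 to 4457877, mm10, plus strand) whose human relative AKR1C4 reduces the ring ketone of bile acid intermediates. Akr1c6 was at 747, 1179, 960.1 and 899 FPKM in knockout 3, 9, 10 and 11, against 1445, 1299, 1298 and 1433 FPKM in wildtype 1, 3, 10 and 12. All knockout libraries lay below all wildtype libraries, and Akr1c6 fell by 0.55 on the log2 scale (SE 0.14, limma adjusted p = 0.0309). The call was lost without knockout 3 (0.0561) or 11 (0.0646) or wildtype 1 (0.0909), 3 (0.0600), 10 (0.0660) or 12 (0.0788), each alone, and without knockout 3 and 11 (0.10), all limma adjusted p. It was also lost with the length trend removed (limma adjusted p = 0.110), quantile normalization (0.115) and no filter on low values (0.0685).

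Hsd3b7, which oxidises the hydroxylated sterol, averaged 221 ± 30.2 FPKM in knockout and 271 ± 31.2 FPKM in wildtype liver (SD, n = 4 each; limma adjusted p = 0.155). Its exons overlap Gm49388 on the same strand, for which the deposited data give no value. Akr1d1, the reductase that gives bile acids their bent ring junction, averaged 46.4 ± 16.8 FPKM in knockout and 45.9 ± 8.23 FPKM in wildtype liver (SD, n = 4 each; limma adjusted p = 0.938). Within the knockout group Akr1d1 was at 61.9 and 59.8 FPKM in knockout 3 and 11 and at 34.0 and 29.9 FPKM in knockout 9 and 10, a split between the same libraries as for Cyp7a1.

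Slc27a5, the bile acyl-CoA synthetase that activates bile acids for conjugation (chromosome 7, 12988346 to 12998192, mm10, minus strand), was at 335, 249.6, 299 and 349 FPKM in knockout 3, 9, 10 and 11, against 486, 432, 491 and 458 FPKM in wildtype 1, 3, 10 and 12. The groups did not overlap. Slc27a5 fell by 0.61 on the log2 scale (SE 0.12, limma adjusted p = 0.0115), a 1.51-fold lower mean. Without knockout 3 and 11 its log2 change was -0.77 (limma adjusted p = 0.0138). The call was lost with median-ratio scaling (-0.50, limma adjusted p = 0.0589) and quantile normalization (-0.33, limma adjusted p = 0.0888), and it held without any single library.

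Baat, which joins the activated bile acid to taurine or glycine (chromosome 4, 49489422 to 49506557, mm10, minus strand), was at 82.0, 119, 89.9 and 80.2 FPKM in knockout 3, 9, 10 and 11, against 131, 138, 129.8 and 138 FPKM in wildtype 1, 3, 10 and 12. Knockout 9 came nearest to the wildtype libraries, which lay close together. Baat fell by 0.55 on the log2 scale (SE 0.13, limma adjusted p = 0.0210). Single omissions of knockout 3 (limma adjusted p = 0.0561) or wildtype 1 (0.0577), 3 (0.0534) or 12 (0.0543) ended the call, as did omission of knockout 3 and 11 together (0.107), quantile normalization (0.143) and removal of the length trend (0.0510).

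Peroxisomal genes of side-chain shortening did not pass. Acox2, the branched-chain acyl-CoA oxidase, was at 86.0 to 89.8 FPKM in knockout and 83.1 to 91.3 FPKM in wildtype libraries, and its log2 change of 0.02 had the narrowest interval of the 30 (95% interval -0.15 to 0.19). Hsd17b4, the bifunctional hydratase and dehydrogenase, averaged 103 ± 9.21 FPKM in knockout and 110.1 ± 11.8 FPKM in wildtype liver. Amacr, the racemase of the side chain, averaged 71.3 ± 11.4 FPKM in knockout and 64.0 ± 5.35 FPKM in wildtype liver. Scp2, whose gene gives a sterol carrier protein and the thiolase of the last step, was at 1296, 1733, 1889 and 1209 FPKM in knockout 3, 9, 10 and 11 and at 1636 to 1940.3 FPKM in wildtype libraries, the low values being those of knockout 3 and 11. Slc27a2, a very long chain acyl-CoA synthetase, averaged 448 ± 57.9 FPKM in knockout and 560.4 ± 130.0 FPKM in wildtype liver (SD, n = 4 each, for the averages). None of these 5 passed, with limma adjusted p between 0.311 and 0.901.

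Abcb11, the bile salt export pump of the canalicular membrane (chromosome 2, 69238282 to 69342616, mm10, minus strand), had the second largest fall of the 30. It was at 40.1, 78.7, 60.9 and 70.1 FPKM in knockout 3, 9, 10 and 11, against 162, 185, 132 and 108 FPKM in wildtype 1, 3, 10 and 12. All knockout libraries lay below the lowest wildtype library, number 12, and knockout 3 was the lowest. Abcb11 averaged 62.4 ± 16.5 FPKM in knockout and 147 ± 33.5 FPKM in wildtype liver (SD, n = 4 each), a 2.35-fold lower mean, and fell by 1.23 on the log2 scale (SE 0.22, limma adjusted p = 0.00931). Without knockout 3 and 11 its log2 change was -1.04 (limma adjusted p = 0.0331), and over the 20 alternatives without a block it ranged from -1.37 to -1.04, with limma adjusted p between 0.00448 and 0.0351. Exons of Abcb11 overlap Gm13613 and Gm13614 on the opposite strand, for which the deposited data give no value.

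The Abcb11 promoter (chr2:69342567-69342866, minus strand) is shown 5′ to 3′ for this called gene, beside that of Slco1a4 (chr6:141856171-141856470, minus strand), an uptake carrier that was also called lower in all 20. Capitals mark the single half-site match of Abcb11, on the opposite strand; none of the 5 motifs was found in these letters of Slco1a4.
Abcb11: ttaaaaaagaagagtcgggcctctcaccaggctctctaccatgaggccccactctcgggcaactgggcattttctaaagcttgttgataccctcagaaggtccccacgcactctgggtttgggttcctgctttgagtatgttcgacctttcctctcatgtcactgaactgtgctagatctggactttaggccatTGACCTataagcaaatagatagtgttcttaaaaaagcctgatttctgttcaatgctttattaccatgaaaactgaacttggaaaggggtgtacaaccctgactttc
Slco1a4: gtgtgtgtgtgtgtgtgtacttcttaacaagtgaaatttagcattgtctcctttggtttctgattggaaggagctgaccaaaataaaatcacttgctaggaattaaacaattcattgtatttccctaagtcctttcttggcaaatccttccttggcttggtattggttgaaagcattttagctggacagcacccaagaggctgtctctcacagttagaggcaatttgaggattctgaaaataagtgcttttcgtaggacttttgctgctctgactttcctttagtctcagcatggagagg

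**Figure D2:**
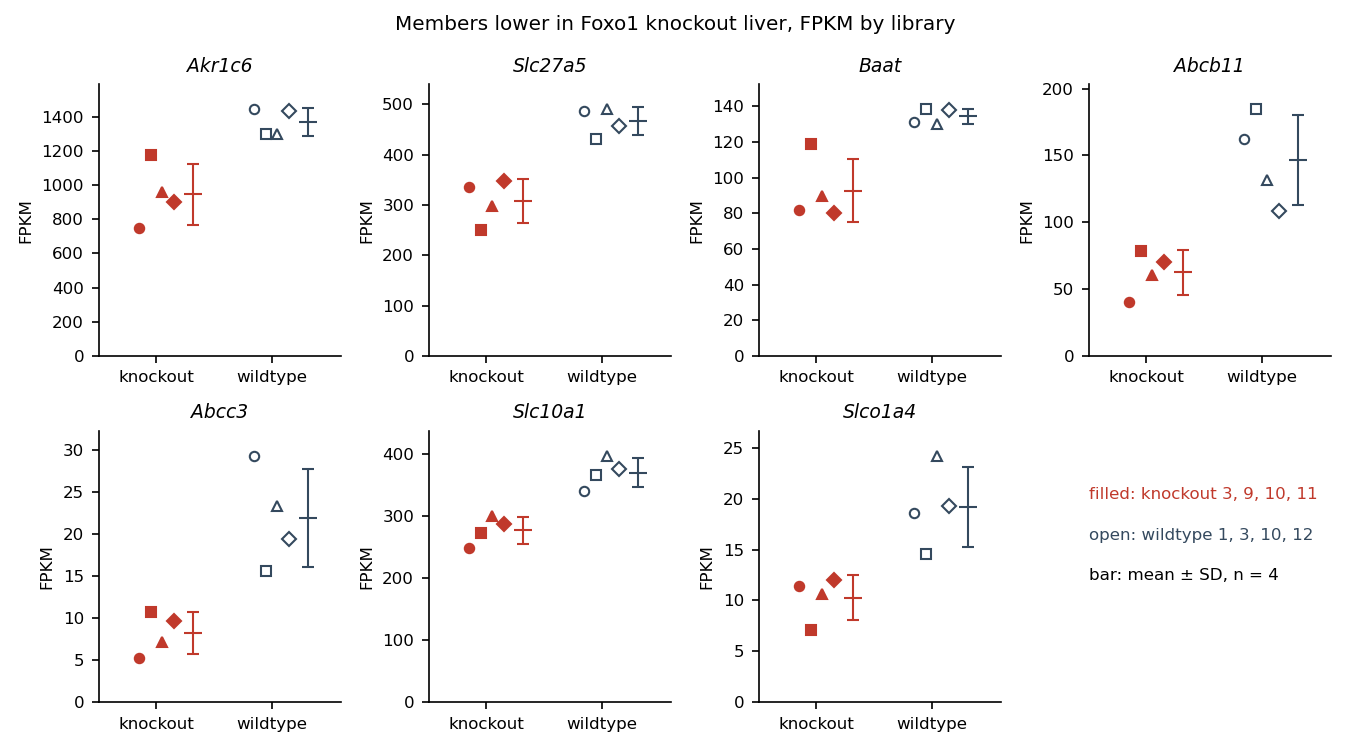
FPKM of the 7 genes that fell, by library, knockout on the left and wildtype on the right, with mean ± SD (n = 4). In every panel all knockout points lie below all wildtype points; the mean ratio is widest for Abcc3 (2.67-fold lower) and Abcb11 (2.35-fold lower).

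Abcb4, the phosphatidylcholine floppase that supplies the lipid of bile, did not pass. It was at 17.6, 40.5, 31.9 and 34.2 FPKM in knockout 3, 9, 10 and 11, against 33.8, 19.6, 26.2 and 26.4 FPKM in wildtype 1, 3, 10 and 12. The groups overlapped, with a log2 change of 0.19 (95% interval -0.37 to 0.74, limma adjusted p = 0.660). The ratio of Abcb4 to Abcb11 FPKM was 0.439, 0.515, 0.524 and 0.489 in knockout 3, 9, 10 and 11, against 0.208, 0.106, 0.199 and 0.244 in wildtype 1, 3, 10 and 12. These ratios did not overlap. They and the other ratios below were chosen after the levels were seen and are given without a test.

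The remaining canalicular genes did not pass. Abcc2, an exporter of bilirubin and other conjugates, was at 31.8, 48.8, 28.8 and 30.2 FPKM in knockout 3, 9, 10 and 11, against 46.2, 32.9, 49.6 and 46.5 FPKM in wildtype 1, 3, 10 and 12. Its log2 change was -0.34 (limma adjusted p = 0.258), and -0.50 without knockout 9, where it passed (limma adjusted p = 0.0466). Abcg2, a drug and urate exporter, averaged 31.9 ± 8.38 FPKM in knockout and 24.3 ± 3.73 FPKM in wildtype liver, and Atp8b1, a phospholipid flippase of the canalicular membrane, 3.19 ± 1.16 and 2.42 ± 0.309 FPKM in knockout and wildtype liver (SD, n = 4 each; limma adjusted p = 0.213 and 0.389). Abcb1a, a multidrug exporter, was at 0.377 to 0.542 FPKM in the knockout libraries and at 0.475, 8.51, 0.417 and 0.454 FPKM in wildtype 1, 3, 10 and 12. It met the filter on low values only through wildtype 3, whose value of its neighbour and near copy Abcb1b, 0.198 FPKM, was not raised.

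Abcc3, an exporter of the sinusoidal membrane that returns bile acids and glucuronides to blood (chromosome 11, 94343295 to 94392997, mm10, minus strand), had the largest fall of the 30. It was at 5.31, 10.8, 7.15 and 9.64 FPKM in knockout 3, 9, 10 and 11, against 29.3, 15.7, 23.4 and 19.5 FPKM in wildtype 1, 3, 10 and 12. The groups did not overlap, and knockout 3 was again the lowest. Abcc3 averaged 8.23 ± 2.47 FPKM in knockout and 22.0 ± 5.84 FPKM in wildtype liver (SD, n = 4 each), a 2.67-fold lower mean, with a log2 change of -1.32 (SE 0.23, limma adjusted p = 0.00782). Without knockout 3 and 11 it was -1.19 (limma adjusted p = 0.0338), and over the same 20 alternatives it ranged from -1.48 to -1.15, with limma adjusted p between 0.00499 and 0.0338.

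Abcc6, a sinusoidal exporter tied to pyrophosphate in blood, was at 21.1, 19.8, 25.6 and 22.8 FPKM in knockout 3, 9, 10 and 11, against 28.5, 25.7, 30.6 and 29.3 FPKM in wildtype 1, 3, 10 and 12. The groups did not overlap, by a small margin between knockout 10 and wildtype 3. Its log2 change of -0.34 (95% interval -0.57 to -0.12) lay at the threshold (limma adjusted p = 0.0506). Omission of knockout 10 (limma adjusted p = 0.0306) or of genes that averaged under 5 FPKM (0.0344) brought it past.

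Slc51b, the smaller subunit of the basolateral organic solute transporter and an FXR target, was at 5.58, 2.72, 1.08 and 4.99 FPKM in knockout 3, 9, 10 and 11, against 1.53, 1.48, 0.728 and 0.779 FPKM in wildtype 1, 3, 10 and 12. Knockout 3, 9 and 11 lay above all wildtype libraries, with 3 and 11 the highest, and knockout 10 lay within the wildtype range. Its log2 change of 1.0 (SE 0.33, 95% interval 0.25 to 1.75) did not pass (limma adjusted p = 0.0774). Leaving out knockout 10 brought it past the threshold (1.33, limma adjusted p = 0.0101), as did removing the length trend (1.36, limma adjusted p = 0.0449), and it was 0.41 without knockout 3 and 11 (limma adjusted p = 0.375). An exon of Slc51b overlaps Rasl12 on the opposite strand, which averaged 0.0159 FPKM.

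**Figure D3:**
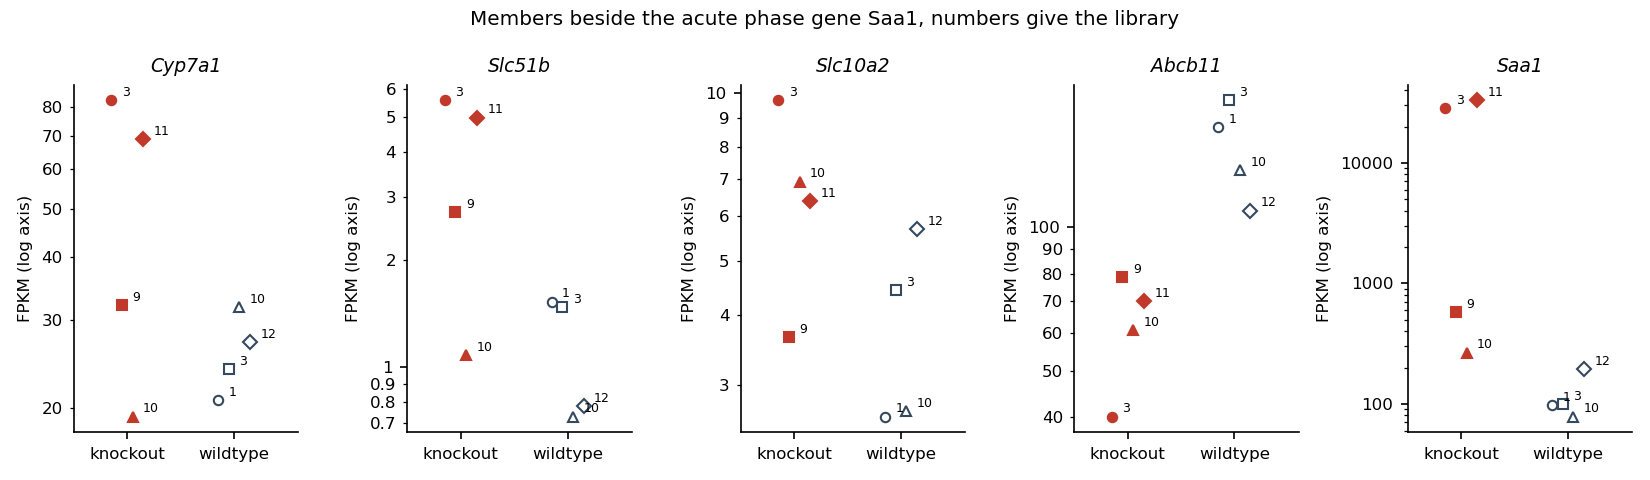
FPKM of 4 bile acid genes and of the acute phase gene Saa1 by library, on log axes whose range differs between panels; numbers are those in the titles. Knockout 3 and 11 are the highest for Cyp7a1, Slc51b and Saa1, whereas all 4 knockout libraries lie below all wildtype libraries for Abcb11.

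Uptake carriers of the sinusoidal membrane fell in part. Slc10a1, the sodium-coupled taurocholate carrier and main route of conjugated bile acids into hepatocytes (chromosome 12, 80953183 to 80968705, mm10, minus strand), was at 249, 273, 300.1 and 287 FPKM in knockout 3, 9, 10 and 11, against 341, 366, 397 and 375 FPKM in wildtype 1, 3, 10 and 12. The groups did not overlap and varied little within themselves. Slc10a1 fell by 0.42 on the log2 scale (SE 0.10, limma adjusted p = 0.020), a 1.34-fold lower mean. The call was lost without wildtype 10 (limma adjusted p = 0.0673) or 12 (0.0523), without knockout 3 and 11 (-0.37, 0.0631), and with median-ratio scaling (-0.31, 0.0601), the length trend removed (-0.26, 0.0680) or quantile normalization (-0.16, 0.239).

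Slco1a4, an organic anion carrier for bile acids and steroid conjugates (chromosome 6, 141805440 to 141856199, mm10, minus strand), was at 11.4, 7.10, 10.7 and 11.98 FPKM in knockout 3, 9, 10 and 11, against 18.6, 14.6, 24.2 and 19.3 FPKM in wildtype 1, 3, 10 and 12. All knockout libraries lay below all wildtype libraries, with knockout 9 the lowest. Slco1a4 fell by 0.84 on the log2 scale (SE 0.18, limma adjusted p = 0.0162), a 1.86-fold lower mean. Without knockout 3 and 11 its log2 change was -1.03 (limma adjusted p = 0.0326). Together with Abcb11 and Abcc3, it was one of 3 of the 30 genes called lower in all 20 alternatives without a block. Slco1a genes are similar in sequence and can share reads.

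Slco1b2, a carrier for unconjugated bile acids and bilirubin, was at 224, 364, 328 and 258 FPKM in knockout 3, 9, 10 and 11, against 381, 342, 409.8 and 409 FPKM in wildtype 1, 3, 10 and 12. Knockout 9 lay above the lowest wildtype library, and the log2 change of -0.41 (95% interval -0.76 to -0.07) missed the threshold (limma adjusted p = 0.108). Leaving out knockout 9 brought it past (-0.53, limma adjusted p = 0.0415). Slco2b1, another organic anion carrier, averaged 28.8 ± 4.52 FPKM in knockout and 28.0 ± 1.84 FPKM in wildtype liver. Ephx1, a microsomal epoxide hydrolase that has been linked to bile acid uptake, was at 85.9 to 219 FPKM in knockout and 146 to 183 FPKM in wildtype libraries. Neither passed (limma adjusted p = 0.887 for Slco2b1 and 0.742 for Ephx1).

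Slc10a2, the sodium-coupled carrier of ileum and bile duct cells, was at 9.68, 3.65, 6.93 and 6.39 FPKM in knockout 3, 9, 10 and 11, against 2.63, 4.44, 2.69 and 5.69 FPKM in wildtype 1, 3, 10 and 12. Knockout 3, 10 and 11 lay above the wildtype range and knockout 9 within it. The log2 change of 0.64 (95% interval 0.03 to 1.26) missed the threshold (limma adjusted p = 0.146). It met it with knockout 9 left out or with libraries weighted by their quality (0.86 in both, limma adjusted p = 0.0419 and 0.0441). Of 10 cholangiocyte markers 3 were tested and 0 called, and 7 averaged under 1 FPKM. Among the defining ones Krt19 was at 0.269 to 0.921 FPKM in knockout and 0.209 to 0.475 FPKM in wildtype libraries, and Krt7 at 0.0425 to 0.201 and 0.0453 to 0.191 FPKM in knockout and wildtype libraries. Their part in the Slc10a2 values was not tested.

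**Figure D4:**
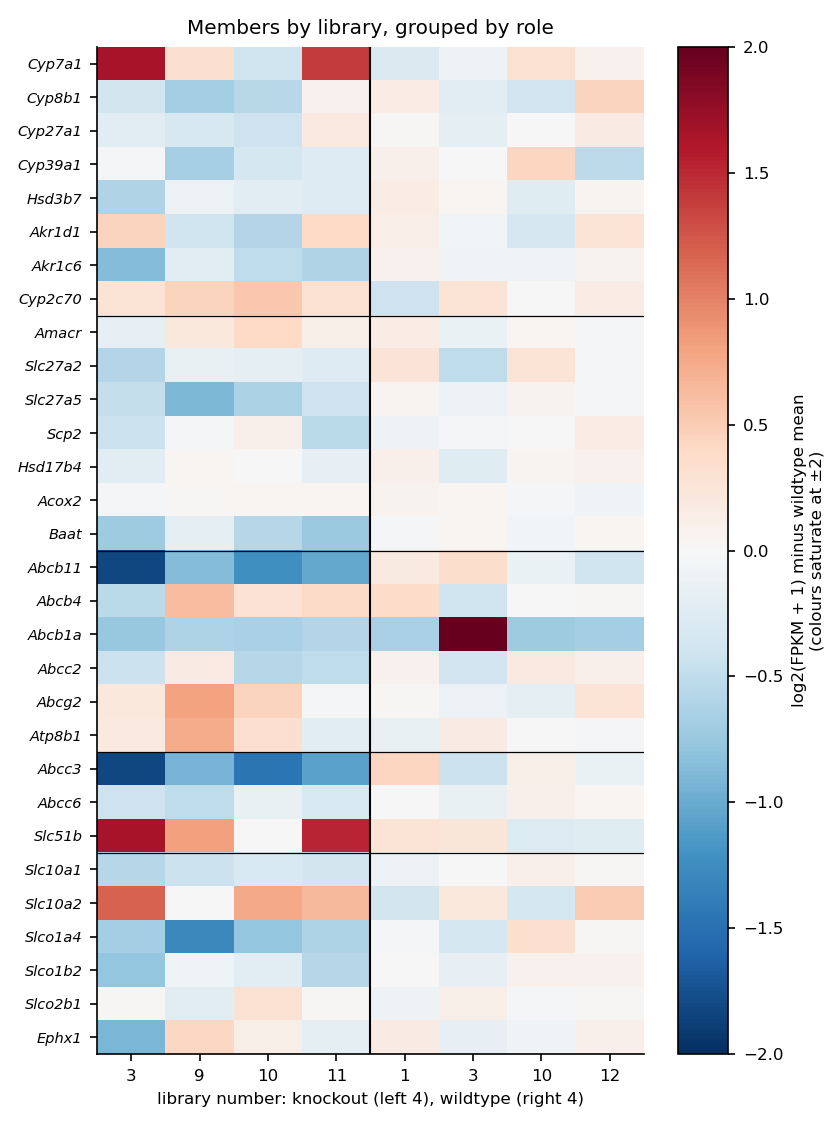
Difference of each library from the wildtype mean in log2(FPKM + 1) for the 30 tested genes, in blocks by role, with knockout libraries in the left 4 columns and wildtype libraries in the right 4. Abcb11 and Abcc3 are blue in all knockout columns, Cyp7a1 and Slc51b are reddest in knockout 3 and 11, and Abcb1a stands out in wildtype 3.

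Uptake and export were also set against each other within each library. The ratio of Slc10a1 to Abcb11 FPKM was 6.20, 3.46, 4.93 and 4.10 in knockout 3, 9, 10 and 11, against 2.1, 1.98, 3.02 and 3.46 in wildtype 1, 3, 10 and 12. The knockout libraries were higher, but knockout 9 and wildtype 12 nearly met. The ratio of Cyp2c70 to Cyp8b1 was 3.28 to 6.14 in knockout and 1.90 to 3.93 in wildtype libraries, and that of Cyp8b1 to Cyp7a1 was 1.27 to 4.79 and 3.28 to 7.20 in knockout and wildtype libraries, both with overlap. Of the 30 genes, 22, 19, 20 and 19 lay below the wildtype mean in knockout 3, 9, 10 and 11, against 11, 20, 14 and 10 in wildtype 1, 3, 10 and 12. Wildtype 3 was thus as high in this count as knockout 9, 10 and 11, so the count does not separate the groups.

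**Figure D5:**
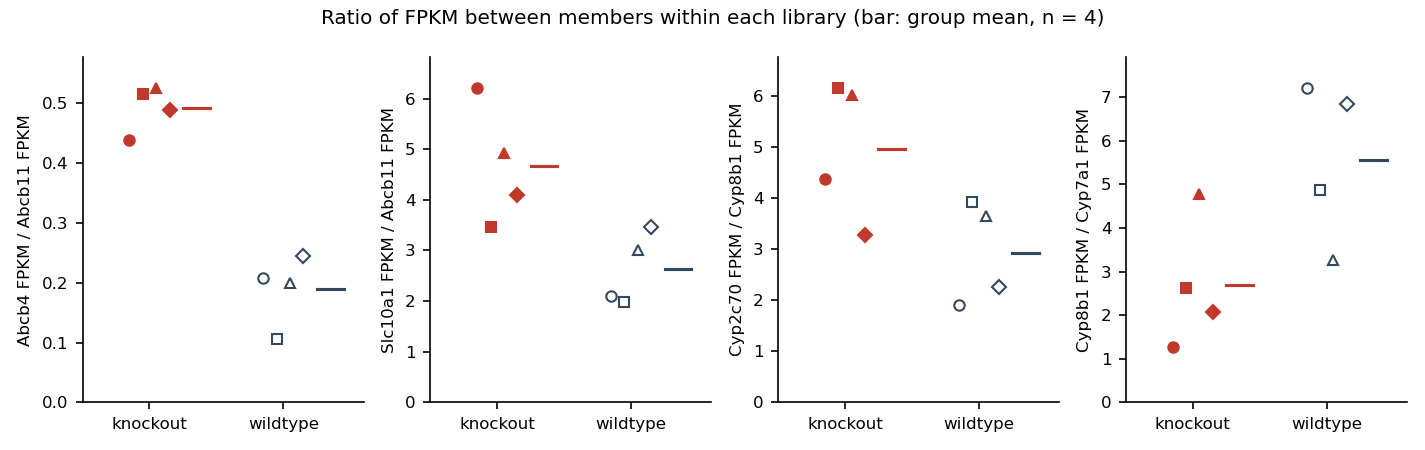
Ratio of FPKM between pairs of bile acid genes within each library, with bars at the group mean (n = 4). The Abcb4 to Abcb11 ratio lies between 0.439 and 0.524 in knockout and between 0.106 and 0.244 in wildtype libraries; the pairs with Cyp8b1 overlap.

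Other genes of the pathway were taken from a list of 56 genes, of which 48 were tested and 6, or 12.5%, were called lower and 3 higher. The share called lower was near the 11.7% of all tested genes, of which 2.7% were called higher. Of the 6, Cyp46a1 met the filter on low values only through the wildtype group. Among 12 tested regulators 2 fell and 1 rose. Nr1i3, the nuclear receptor CAR of drug and bile acid metabolism, was at 54.3 to 69.9 FPKM in knockout and 87.3 to 133 FPKM in wildtype libraries and fell by 0.86 on the log2 scale (limma adjusted p = 0.00823). Klb, the co-receptor of Fgf15 signalling, was at 3.63 to 4.79 FPKM in knockout and 6.29 to 7.79 FPKM in wildtype libraries and fell by 0.71 (limma adjusted p = 0.00466). Hnf4a, a nuclear receptor that drives many hepatocyte genes, rose by 0.43 (limma adjusted p = 0.0494), with knockout 10 at 69.7 FPKM inside the wildtype range of 55.7 to 70.5 FPKM. That call was lost without knockout 3 (limma adjusted p = 0.121), 9 (0.0822) or 11 (0.104) and without wildtype 1 (0.0988), 3 (0.117), 10 (0.0767) or 12 (0.0951), without knockout 3 and 11 (0.228), and with no filter on low values (0.0857), a pseudocount of 0.1 (0.0507), the length trend removed (0.0549), no mean trend (0.051) or library weights (0.0681). The FXR gene Nr1h4 was at 57.4, 56.9, 50.9 and 53.0 FPKM in knockout 3, 9, 10 and 11, against 53.3, 56.0, 60.5 and 50.1 FPKM in wildtype 1, 3, 10 and 12, with a log2 change of -0.01 (95% interval -0.21 to 0.19) that turned to 0.10 with median-ratio scaling, 0.16 with quantile normalization and 0.12 with the length trend removed. Nr0b2, which encodes SHP, was at 11.96 to 43.7 FPKM in knockout and 24.3 to 51.4 FPKM in wildtype libraries (-0.57, 95% interval -1.41 to 0.27, limma adjusted p = 0.343), and knockout 3 was the lowest.

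Among 18 tested genes of the wider synthesis list 4 were called lower and 1 higher, against 11.7% and 2.7% of all tested genes, and 1 of the 4, Cyp46a1, passed the filter only through the wildtype group. Cyp7b1, the oxysterol hydroxylase of the alternative route, was at 412, 582, 316 and 292 FPKM in knockout 3, 9, 10 and 11, against 164, 236, 219.5 and 166 FPKM in wildtype 1, 3, 10 and 12, a log2 change of 0.99 (limma adjusted p = 0.0183). The call was lost without wildtype 1 (limma adjusted p = 0.0596) or wildtype 12 (0.0539). Fdx1, the ferredoxin that passes electrons to mitochondrial P450 enzymes such as Cyp27a1, was at 91.4 to 115 FPKM in knockout and 155 to 194 FPKM in wildtype libraries and fell by 0.67 (limma adjusted p = 0.00581). Hsd17b6, a steroid and retinoid oxidoreductase, fell by 1.36 (limma adjusted p = 0.00681), with 45.3 to 88.9 FPKM in knockout and 146 to 204 FPKM in wildtype libraries. Cyp3a11, a drug and bile acid hydroxylase with similar copies, averaged 922 ± 54.4 FPKM in knockout and 1244 ± 109 FPKM in wildtype liver and fell by 0.43 (limma adjusted p = 0.0243). Cyp46a1, a cholesterol hydroxylase known from brain, was at 0.397 to 1.13 FPKM in knockout and 0.931 to 2.301 FPKM in wildtype libraries, with a log2 change of -0.78 (limma adjusted p = 0.0272). The groups overlapped, and it met the filter on low values only through the wildtype group, since it averaged 0.613 FPKM in knockout and 1.78 FPKM in wildtype liver. The Cyp3a11 call was lost without knockout 3 (limma adjusted p = 0.0523) or wildtype 1 (0.0737), 3 (0.0653) or 12 (0.0703), without knockout 3 and 11 (0.0754), and with median-ratio scaling (0.0730) or quantile normalization (0.135). That of Cyp46a1 was lost without knockout 3 (limma adjusted p = 0.0726), 9 (0.0514) or 11 (0.0618) or wildtype 1 (0.0738), 10 (0.0737) or 12 (0.0723), without knockout 3 and 11 (0.15), and with no filter on low values (0.0653).

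Of 18 further transport genes tested, 1 rose and 0 fell, while 2.7% of all tested genes were called higher and 11.7% lower. The gene that rose was Slc22a7, an organic anion carrier of the sinusoidal membrane, at 93.9, 70.1, 57.1 and 93.2 FPKM in knockout 3, 9, 10 and 11, against 23.6, 18.4, 15.4 and 34.8 FPKM in wildtype 1, 3, 10 and 12 (log2 change 1.76, limma adjusted p = 0.00413). The sterol exporters Abcg5 and Abcg8 averaged 38.3 ± 7.84 and 32.4 ± 5.38 FPKM in knockout and 42.1 ± 5.28 and 34.6 ± 6.13 FPKM in wildtype liver (SD, n = 4 each), and neither passed (limma adjusted p = 0.578 and 0.747). Slco1a1, a close relative of Slco1a4, was at 76.2 to 182 FPKM in knockout and 109.7 to 144 FPKM in wildtype libraries (limma adjusted p = 0.809).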

How the data were processed

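Liver RNA of 4 Foxo1 knockout and 4 wildtype libraries was sequenced after Trizol extraction, DNase treatment and column purification, per the labels' protocols. TopHat2 2.1.0, HTSeq, Cufflinks 2.2.1 and the build mm10 are named, without role or order, in the submitters' processing notes; the sources used here give neither annotation nor strand setting. The authors deposited FPKM per gene, a unit read from the values and the tools named, and exact zeros, which can be failed estimates, were taken as values. Groups came from the titles. Symbols, coordinates and transcript lengths came from GENCODE M21 on the same build.

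Genes averaging 1 FPKM or more entered a linear model of log2(FPKM + 1) on genotype alone (limma 3.58.1, R 4.3.3), with variances moderated along a mean trend. Tests were two-sided, with Benjamini-Hochberg adjustment over all 10250 genes at 0.05. Fold changes of low genes come out too small on this scale. The fit was tested on simulated data. Depth was read from genes with 1 transcript longer than 1500 bases, and as counts were not used here it is an estimate. Genes given with a value in every library are those called, plus Cyp7a1, Cyp8b1, Cyp27a1, Cyp2c70, Abcb4 and Slc51b in any case; of the other pathway genes those that passed, Nr1h4 and Nr0b2 were named, and values of other genes were picked after they were seen. The 32 genes, the lists and the tests were chosen with earlier results of these data known. The alternatives comprised pseudocounts of 0.1 and 0.5, other filters and scalings, other variance models, library weights, removal of a loess trend (span 0.5) along transcript length, title numbers as a block, omission of each library, and a threshold of 0.1; omission of knockout 3 and 11 together was chosen after seeing the data.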

Additional observations from a re-analysis of the deposited data

Results flagged for a closer look

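In a group of 4 libraries, a library was taken to lie apart where the gap between the highest or lowest value and the next, as a share of the whole range, passed Dixon's 95% critical value, and chance gives this in about 1 of 20 groups. It was looked for in 86 groups, and 7 met it. Abcb1a in wildtype 3, at 8.51 FPKM while wildtype 1, 10 and 12 had 0.417 to 0.475 FPKM, had a share of 0.993. The share was 0.855 for Hsd17b4 in wildtype 3 (92.5 FPKM, the others 114 to 118) and 0.849 for Abcc2 in knockout 9 (48.8 FPKM, the others 28.8 to 31.8). It was 0.834 for Klb in knockout 9 (4.79 FPKM, the others 3.63 to 3.82) and 0.834 for Fdx1 in wildtype 12 (194 FPKM, the others 155 to 162). Cyp46a1 in knockout 10 (1.13 FPKM, the others 0.397 to 0.480) gave 0.888, and Hnf4a in knockout 10 (69.7 FPKM, the others 92.1 to 95.8) gave 0.857.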

How the results depend on the processing

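Against 277 genes called higher and 1195 lower by limma, and 0 and 7 of the 30 bile acid genes, median-ratio scaling gave 485 and 720 (0 and 5 of the 30), quantile normalization 470 and 652 (1 and 3), and removal of the length trend 516 and 585 (2 and 4). Library weights called 1 of the 30 higher and 7 lower. A threshold of 0.1 called 516 higher and 1741 lower (1 and 8 of the 30), and omission of knockout 3 and 11, chosen after seeing the data, 193 and 653 (0 and 4). Leaving out single libraries gave 105 to 361 higher and 598 to 1296 lower, and 0 to 2 and 4 to 9 of the 30. The counts moved by over 1.5 times without knockout 3 (158 higher, 724 lower), wildtype 1 (105, 598), wildtype 10 (151, 748), wildtype 3 (162 higher) and wildtype 12 (746 lower). The cause was not tested.

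The title numbers 3 and 10 occur in both groups. Deviations of same-numbered libraries had r = -0.0079 and 0.022 across genes, which are not independent replicates. So few shared numbers cannot settle whether libraries are paired. The labels do not say that the numbers pair libraries, so the numbers were not taken to do so. With them as a replicate block 1 gene was called higher and 1 lower, 0 of the 30 were called, and the log2 change of Akr1d1 was 0.13. In that fit only the libraries numbered 3 and 10 inform the difference, so its loss of calls cannot be read as an effect of pairing.

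Of 42 named genes 9 changed sign in some setting, and 0 of these 9 had been called. With median-ratio scaling Akr1d1 was at 0.069, Hsd17b4 at 0.020 and Nr1h4 at 0.10. With quantile normalization Cyp27a1 was at 0.054, Akr1d1 at 0.13, Hsd17b4 at 0.13, Ephx1 at 0.10 and Nr1h4 at 0.16. With the length trend removed Akr1d1 was at 0.050, Hsd17b4 at 0.00036, Ephx1 at 0.014 and Nr1h4 at 0.12. Without knockout 3 and 11 Cyp7a1 was at -0.040, Scp2 at 0.046, Hsd17b4 at 0.018 and Ephx1 at 0.27. Leaving out single libraries gave Acox2 -0.0062 to 0.039, Akr1d1 -0.20 to 0.14, Ephx1 -0.33 to 0.12, Nr1h4 -0.053 to 0.037 and Slco2b1 -0.060 to 0.12. Apart from the block, 739 values of single genes in other settings kept their direction and side of the threshold, 55 fell short of it and 11 newly passed it. Depth is an estimate and gives no interval for low genes.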
